A study of Mus musculus with 11 samples.

Results

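Genes that stand for the multipotent progenitor state and for the first steps towards the myeloid lineage were followed in sorted hematopoietic stem cells (HSC) of 3 mouse genotypes. The set held 10 of the 37991 Ensembl gene IDs in the deposited count table and was matched by symbol: the surface proteins Cd48 and Cd34, the granule proteins Mpo, Ctsg and Elane, the receptor Csf1r, and the transcription factors Cebpa, Cebpb, Irf8 and Gfi1. Each symbol matched 1 ID in the annotation of NCBIM37, the build the authors aligned to.

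HSC sit at the top of the blood system and give rise to multipotent progenitors, which in turn give rise to granulocyte-monocyte progenitors. CD48 is absent from the surface of most HSC and appears on multipotent progenitors, and CD34 marks progenitors and a part of the HSC pool. Myeloid priming is the low transcription of myeloid genes in cells that are not yet committed: PU.1 (encoded by Spi1) and the C/EBP factors switch on the genes of primary (azurophil) granules and of the M-CSF receptor, Irf8 favors monocytes and dendritic cells, and Gfi1 favors granulocytes and restrains stem cell proliferation.

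HSC from 8-week-old C57BL/6 mice were compared in 3 groups: 4 libraries from wild type control mice (littermates in the study's methods), 4 from NA10hd mice and 3 from NV mice. NA10hd mice carried a NUP98-HOXA10HD fusion gene behind a floxed stop (LSL) in the ROSA26 locus, made from a targeted embryonic stem cell line, and NV mice carried 1 NrasG12D allele behind a floxed stop. Both alleles were opened by Vav-Cre, which is active in all blood cells and also in endothelium, so that the change was present from early blood development on and not only in HSC. Each library was amplified cDNA of 1000 bone marrow cells sorted as Lin- CD48- c-Kit+ Sca1+ CD135- CD150+, while 1 account of the RNA-Seq sort leaves CD48 out and a sorting legend writes c-Kit and Sca1 as negative. Transcripts of both were abundant in each library, with Kit at 244 to 467 CPM and Ly6a (Sca1) at 255 to 591 CPM (CPM are counts scaled to the size of the library). The gate acts on CD48 protein and so bears on Cd48 itself. How many mice each library came from is not given in the sources used here, and p-values then measure only the spread between these libraries.

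Total counts ranged from 5464815 to 14283008 per library with a median of 10639180. Genes with at least 1 count numbered 13859 to 15900, and the lowest numbers, 13859 and 14430, were those of NA10hd replicates 4 and 1. Sex-specific transcripts split the libraries: control replicates 1 and 4 and NA10hd replicates 1 to 3 held Y-linked counts with 0 Xist counts, control replicates 2 and 3 and all 3 NV libraries held both, and NA10hd replicate 4 held Xist with 0 Y-linked counts. No NA10hd library had the mix of the NV libraries, so genotype and sex cannot be told apart in that comparison. Libraries that held both kinds may pool mice of both sexes, which was not tested. Their spread would then not be of the same kind as that of the NA10hd libraries. All 15 genes fixed for the HSC gate and long-term HSC were detected, with a summed level of 2596 to 4279 CPM, and the 12 markers of mature neutrophils summed to 0.673 to 7.26 CPM, with Lcn2, Mmp8 and Cd177 at 0 in all libraries. In such bulk samples, fewer cells of a type and less RNA per cell cannot be told apart.

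The 10 genes together had 19712 counts over the 11 libraries. Cd34 held 70.8% of them, Gfi1 18.2%, Cebpb 5.19% and Irf8 4.10%, and the other 6 genes shared the rest. Only these 4 had counts in all 11 libraries. Per kilobase of exon, control HSC had 44.1 CPM of Cd34, 6.97 of Gfi1, 5.0 of Cebpb, 1.5 of Cd48, 0.777 of Irf8, 0.228 of Cebpa and 0.206 of Elane, with Mpo, Ctsg and Csf1r at 0. On this per-length scale Cd34 lay at percentile 91.3 of the 18026 genes detected in control, Gfi1 at 61.0 and Cebpb at 54.9. Among neighbors in this order, Gfi1 and Cebpb overlapped over the control libraries, as did Cd48 and Irf8, and Cebpa and Elane, whereas Cd34 lay above Gfi1, Cebpb above Cd48, and Irf8 above Cebpa in every control library. Places differed by group for several genes: Cd48 was in place 4 in control, 7 in NA10hd and 3 in NV HSC, and Elane in place 7, 5 and 7. In each group Cd48 overlapped the gene in the next place.

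**Figure D1:**
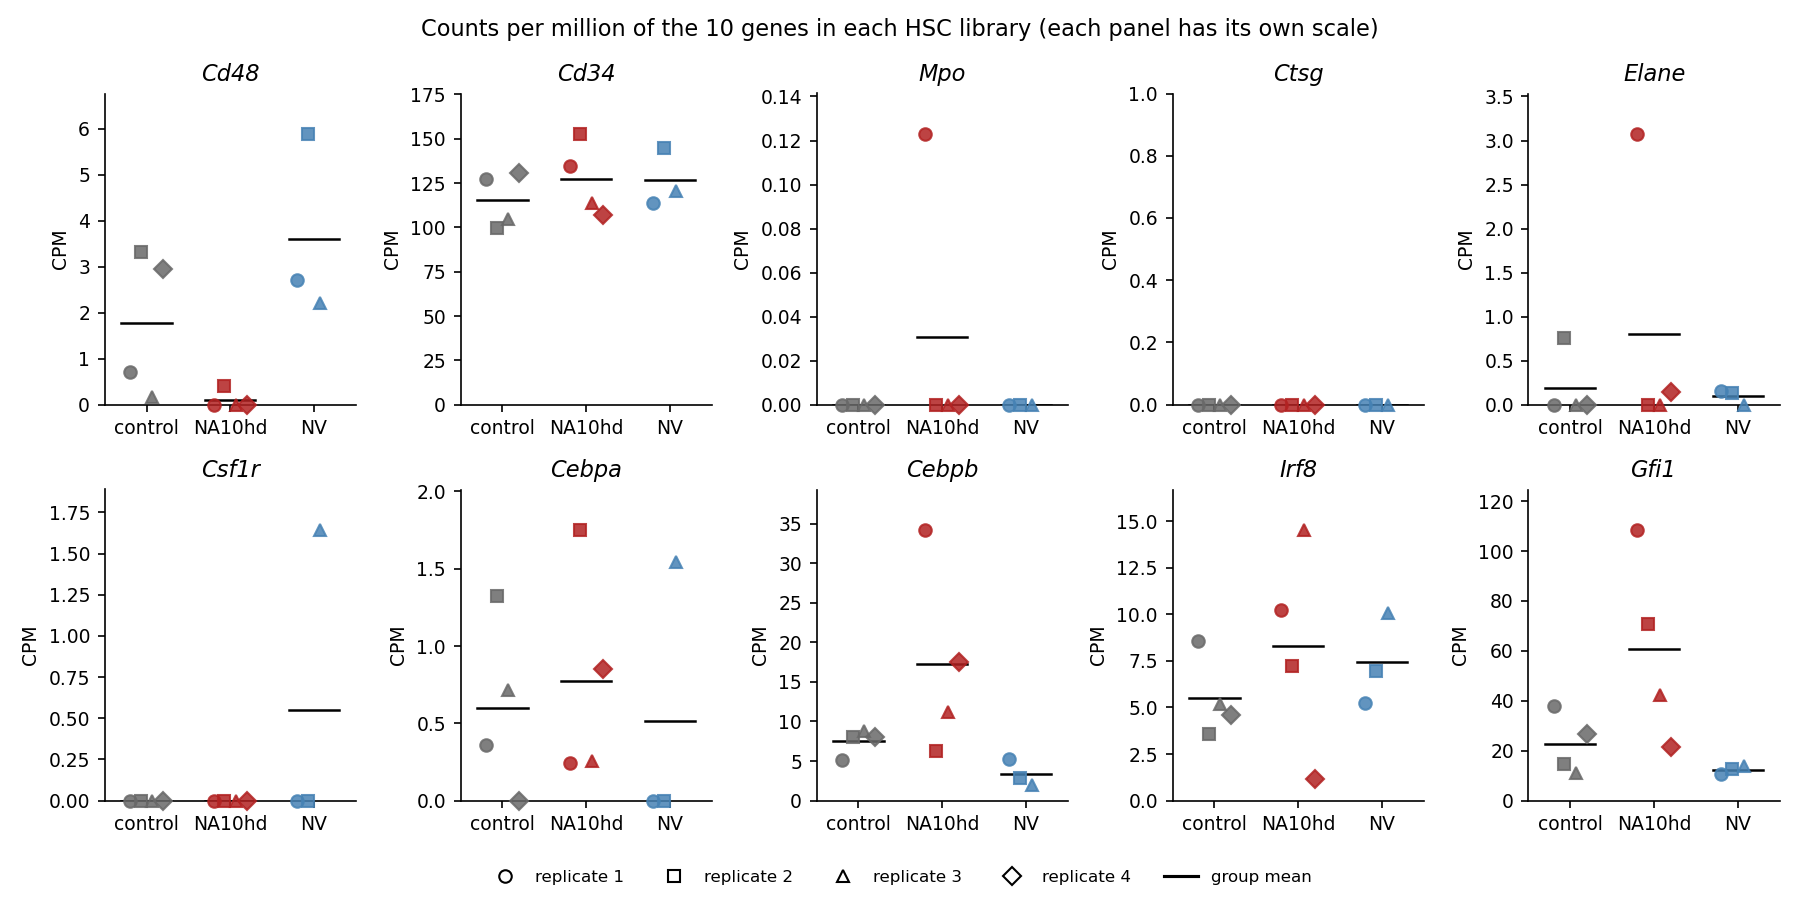
CPM (y axis, linear and separate for each gene) of the 10 genes in the 4 control, 4 NA10hd and 3 NV libraries, 1 point per library with the symbol giving the replicate and a line at the group mean. Cd34 stood between 99.6 and 153 CPM everywhere, Mpo, Ctsg, Elane and Csf1r were at 0 in most libraries, and Gfi1 and Cebpb were higher in every NA10hd library than in any NV library.

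Cd48, the ligand of CD244 and a cell surface protein of the SLAM family that the sort selected against, lies at chr1:173612140-173635389 (NCBIM37, plus strand, 4 exon blocks). Its level in the 4 control libraries was 0.715, 3.32, 0.159 and 2.96 CPM. In the 4 NA10hd libraries it was 0, 0.398, 0 and 0 CPM, a total of 5 counts, all of them in replicate 2. In the 3 NV libraries it was 2.71, 5.89 and 2.22 CPM. NA10hd HSC were thus lower than every NV library, and overlapped control only through the lowest control library. Against control, Cd48 did not pass the filter on low counts in NA10hd HSC. With no filter its log2 fold change there was -3.89 (SE 1.60) with an adjusted p of 0.392 in edgeR, and 63 counts among the 35904381 of control stood against 5 among the 40259902 of NA10hd. NV HSC differed from control by 1.0 (SE 0.83, adjusted p = 0.574 in edgeR) on the log2 scale. NA10hd HSC differed from NV HSC by -4.87 (SE 1.36), and the adjusted p of 0.0643 in edgeR missed the threshold of 0.05. Cd48 entered that comparison only through the NV libraries, where it is high, so these values are a description. The adjusted p lay between 0.0100 (DESeq2) and 0.284 over all alternatives.

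The other genes of the SLAM cluster around Cd48 gave no call in any comparison. Slamf1, which encodes the CD150 of the gate, was at 107 ± 31.1 CPM (SD, n = 4) in control, 117 ± 40.4 (SD, n = 4) in NA10hd and 70.3 ± 7.03 (SD, n = 3) in NV HSC. Its log2 difference between NV and control was -0.61 (SE 0.21, adjusted p = 0.134 in edgeR). Cd244, the CD48 receptor, had 79 counts in all, 60 of them in NV replicate 2, and was detected in 4 of the 11 libraries, and Slamf6 and Slamf7 were at 0 in all 11 libraries. Flt3, which encodes the CD135 of the gate and is a marker of lymphoid-primed progenitors, was detected in each library at 2.07 to 18.7 CPM, and no comparison called it.

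Cd34, a sialomucin of progenitors and endothelium at chr1:196765015-196787486 (NCBIM37, plus strand), showed the smallest differences among the tested genes. Its level was 127, 99.6, 105 and 131 CPM in control libraries, 135, 153, 114 and 107 CPM in NA10hd libraries and 114, 145 and 121 CPM in NV libraries. The 3 groups overlapped throughout. The log2 fold changes were 0.14 (SE 0.17) for NA10hd against control, 0.13 (SE 0.15) for NV against control and -0.00 (SE 0.19) for NA10hd against NV, with adjusted p of 0.802, 0.704 and 1.0 in edgeR. Of the exon bases of Cd34, 5.65% are shared with Gm16897 on the opposite strand, and the strand setting of the counting is not given in the sources used here.

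The azurophil granule genes were almost silent. Mpo (myeloperoxidase, chr11:87607083-87617915) had 1 count among the 112761488 of all libraries, in NA10hd replicate 1. Ctsg (cathepsin G, chr14:56718718-56721411) had 0 counts in each library, which allows a level of up to 0.0266 CPM over all libraries at 3 counts, a limit that covers counting error only. Elane (neutrophil elastase, chr10:79349057-79350961) had 0, 8, 0 and 0 counts in control libraries, 25, 0, 0 and 1 in NA10hd libraries and 2, 2 and 0 in NV libraries. The highest Elane level, 3.07 CPM, was that of NA10hd replicate 1, and the gene overlapped between the groups. None of the 3 genes passed the filter on low counts, so none was tested in the 3 comparisons.

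Prtn3 (proteinase 3, another azurophil serine protease) starts the same gene cluster and ends 3138 bases before the start of Elane, on the same strand (chr10:79337221-79345919). It was abundant: 251, 392, 460 and 249 CPM in control libraries, 543, 358, 455 and 448 CPM in NA10hd libraries and 309, 249 and 242 CPM in NV libraries. Per kilobase, Prtn3 was at 195 CPM in control HSC against 0.206 for Elane, which placed Prtn3 at percentile 98.5 and Elane at percentile 17.3 of the detected genes. Each NA10hd library was above each NV library in Prtn3, and the difference was called (log2 fold change 0.75, SE 0.18, adjusted p = 0.0360 in edgeR). NA10hd and NV HSC differed from control by 0.42 (SE 0.21) and -0.35 (SE 0.20) in Prtn3, with adjusted p of 0.466 and 0.395 in edgeR. Control libraries split by their sex-specific transcripts. Replicates 2 and 3, which held both kinds, were at 392 and 460 CPM, and replicates 1 and 4, with Y-linked counts alone, at 251 and 249 CPM. The part of sex and depth in the Prtn3 differences was not tested. Of the Prtn3 exon bases, 9.18% are shared with BC005764 on the opposite strand.

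The 250 bases before the start of Prtn3, Elane, Mpo and Ctsg are shown because these 4 genes encode proteins of the same granule and were at very different levels, and that of Gfi1 because it was the only gene of the set that was called. They are RefSeq sequences of GRCm38.p6, read 5′ to 3′ along the gene, and the outermost start of Gfi1 was taken. Capitals mark matches on either strand to 6 motifs: GAGGAAG for PU.1, TTNNGNAA for C/EBP, TGTGGT for Runx, AACGG for Myb, AAATCNC for Gfi1 and GAAANNGAA for IRF. The only overlap in the sequences shown is in Ctsg, where the last base of GAGGAAG is the first of the IRF match.
Prtn3, chr10:79879417-79879666, plus strand: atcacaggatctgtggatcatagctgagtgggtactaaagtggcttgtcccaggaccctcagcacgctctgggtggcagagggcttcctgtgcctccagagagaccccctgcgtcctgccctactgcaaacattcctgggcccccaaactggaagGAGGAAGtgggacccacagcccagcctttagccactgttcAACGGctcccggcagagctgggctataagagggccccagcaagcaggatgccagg
Elane, chr10:79886062-79886311, plus strand: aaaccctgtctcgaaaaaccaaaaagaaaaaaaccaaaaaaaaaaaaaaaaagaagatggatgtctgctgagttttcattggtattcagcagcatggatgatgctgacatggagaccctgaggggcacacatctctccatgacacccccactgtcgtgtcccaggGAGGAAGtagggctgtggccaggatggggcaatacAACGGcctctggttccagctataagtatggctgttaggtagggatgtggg
Mpo, chr11:87793534-87793783, plus strand: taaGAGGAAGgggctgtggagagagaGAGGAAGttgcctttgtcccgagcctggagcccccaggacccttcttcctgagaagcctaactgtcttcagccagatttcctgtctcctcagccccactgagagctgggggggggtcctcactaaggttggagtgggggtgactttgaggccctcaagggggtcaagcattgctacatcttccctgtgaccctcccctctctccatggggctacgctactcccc
Ctsg, chr14:56102575-56102824, minus strand: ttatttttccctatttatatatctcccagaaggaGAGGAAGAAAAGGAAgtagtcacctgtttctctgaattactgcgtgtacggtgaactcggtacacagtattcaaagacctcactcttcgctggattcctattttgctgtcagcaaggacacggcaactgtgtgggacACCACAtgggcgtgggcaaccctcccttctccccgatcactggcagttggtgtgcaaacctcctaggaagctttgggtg
Gfi1, chr5:107725806-107726055, minus strand: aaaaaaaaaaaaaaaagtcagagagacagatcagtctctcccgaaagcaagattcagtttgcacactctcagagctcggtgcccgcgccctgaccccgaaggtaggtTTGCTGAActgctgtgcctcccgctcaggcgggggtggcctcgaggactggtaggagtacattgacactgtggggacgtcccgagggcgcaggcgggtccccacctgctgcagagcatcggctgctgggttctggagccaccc

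Prtn3 and Elane held the same pair of motifs in the same order. GAGGAAG began 95 bases before the start in Prtn3 and 85 bases before it in Elane, and AACGG followed 55 and 50 bases before the start. Both motifs were found in 1.53% of the 32851 RefSeq windows of this length. No other pair of the 6 motifs was counted, and Prtn3 and Elane are neighbors in the same gene cluster. The share therefore does not measure how rare the shared pair is. Mpo held GAGGAAG at 2 places, and Ctsg held GAGGAAG once, with the IRF letters next to it and TGTGGT on the opposite strand. In all, GAGGAAG was found in 10.6% of windows, AACGG in 14.5%, TGTGGT in 14.0% and GAAANNGAA in 7.13%. No match to AAATCNC, found in 10.3% of windows, lay in the 5 sequences shown. Gfi1 had a single match, to the C/EBP letters on the opposite strand, which 36.8% of windows hold. Prtn3 and Elane thus held the same matches to the 6 motifs, at levels of 195 and 0.206 CPM per kilobase in control HSC. The Prtn3 gene that was counted starts upstream of the RefSeq start used here, so its window lies inside that gene. Where in the gene the Prtn3 reads fell was not checked. A window was found for 9 of the 10 genes, all but Csf1r, and of the 12 windows of these genes and Prtn3, 3 held no match to any of the 6 motifs (Cd34, Cebpb and the inner start of Gfi1).

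Of the 12 other granule and secretory genes fixed for granulocyte-monocyte progenitors, Srgn and Lyz2 stood with Prtn3 at the top. Srgn (serglycin, the proteoglycan that packs granule proteases) had 544 CPM per kilobase in control HSC and Lyz2 (lysozyme of macrophages) had 376. Lyz1, the lysozyme gene next to Lyz2, had 1.42, and reads shared by these near-identical copies could have been split between them. Fcnb was at 0 in all libraries. In NA10hd against control, none of the 9 genes tested was called, beside 0.00766% of all genes. In NV against control 1 of 11 was called, beside 4.76% of all genes: Serpinb1a (a serpin that inhibits neutrophil proteases), which was higher by 1.2 (SE 0.18, adjusted p = 0.00273 in edgeR). In NA10hd against NV 3 of 11 were called, beside 5.09% of all 13461 genes tested, 2.30% higher and 2.79% lower: Prtn3 was higher, and Serpinb1a (-1.46, SE 0.29, adjusted p = 0.0159) and Nkg7 (-2.58, SE 0.60, adjusted p = 0.0344 in edgeR), a granule membrane protein of cytotoxic cells, were lower. The median log2 difference of the 11 genes was -0.16, beside 0.01 over all genes tested.

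**Figure D2:**
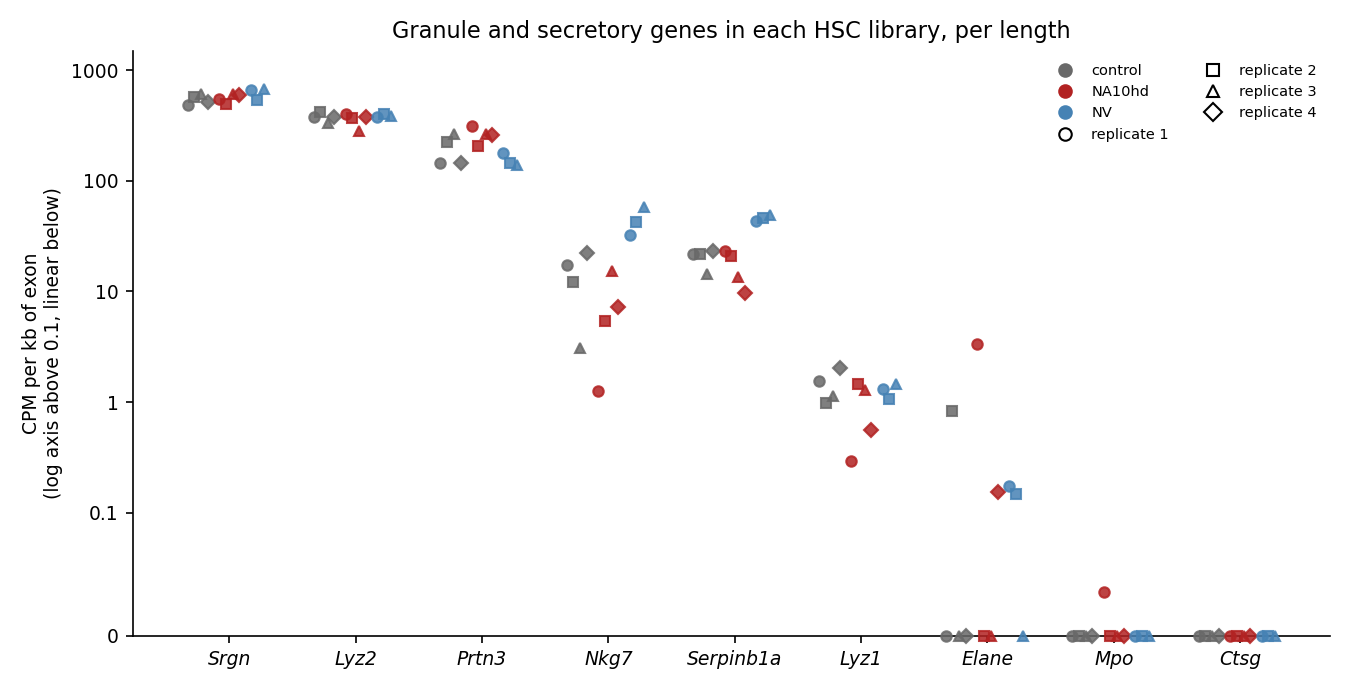
CPM per kilobase of exon (y axis, logarithmic above 0.1 and linear below) of 9 granule and secretory genes in each library, with the color giving the group and the symbol the replicate. Srgn, Lyz2 and Prtn3 lay above 100 in all 11 libraries, and Elane, Mpo and Ctsg lay at 0 in most.

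Csf1r, the M-CSF receptor of monocytes and macrophages, had 17 counts, all in NV replicate 3 (1.64 CPM), and was at 0 in the other 10 libraries. The 4 control libraries together allow up to 0.0836 CPM and the 4 NA10hd libraries up to 0.0745 CPM. Of its exon bases, 16.7% are shared with Hmgxb3 on the opposite strand. Of its ligands, Csf1 (M-CSF) was at 6.88 to 22 CPM with no call in any comparison, and Il34 was at 0 in all libraries. The other myeloid cytokine and Fc receptor genes, with these ligands, gave calls only outside the comparison of NA10hd with control. In NV HSC, Il6st (gp130, the shared receptor of the IL-6 family) was lower than in control by a log2 difference of -1.07 (SE 0.25, adjusted p = 0.0249 in edgeR), the only call among 9 genes tested, beside 2.21% of all genes called lower. NA10hd HSC were higher than NV HSC in Csf2rb, the common beta chain of the IL-3, IL-5 and GM-CSF receptors (1.56, SE 0.34, adjusted p = 0.0273), and in Il6st (1.17, SE 0.29, adjusted p = 0.0407 in edgeR), 2 calls among 8, beside 2.30% of all genes called higher.

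The transcription factors held the only call of the set. Cebpa, the factor that granulocyte-monocyte progenitors depend on (chr7:35904312-35906945, a gene of 1 exon), was at 0.357, 1.33, 0.717 and 0 CPM in control libraries, 0.246, 1.75, 0.259 and 0.852 CPM in NA10hd libraries and 0, 0 and 1.55 CPM in NV libraries. These 74 counts in all did not pass the filter, and the groups overlapped. Spi1, the gene of its partner PU.1, was at 29.4 to 75.3 CPM and was not called in any comparison.

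Cebpb, the C/EBP factor of emergency granulopoiesis and macrophages (chr2:167514415-167515918, a gene of 1 exon), was at 5.18, 8.05, 8.77 and 8.07 CPM in control libraries. It was at 34.2, 6.29, 11.2 and 17.5 CPM in NA10hd libraries and at 5.25, 2.84 and 2.03 CPM in NV libraries. Every NA10hd library was above every NV library, and both genotypes overlapped control. NA10hd HSC differed from control by 1.19 (SE 0.49, adjusted p = 0.370) and NV HSC by -1.16 (SE 0.45, adjusted p = 0.169 in edgeR) on the log2 scale. Between NA10hd and NV HSC the difference was 2.33 (SE 0.64), 5.04-fold, with an adjusted p of 0.0625 in edgeR, and from 0.00308 in DESeq2 to 0.255 over the alternatives. Without NA10hd replicate 1, the highest library, the difference was 1.77 (SE 0.63) with an adjusted p of 0.143. Of the Cebpb exon bases, 20.7% are shared with Tmem189 on the opposite strand.

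Irf8, a factor of monocyte and dendritic cell fate (chr8:123260258-123280594), was at 8.58, 3.60, 5.18 and 4.57 CPM in control libraries, 10.2, 7.24, 14.5 and 1.14 CPM in NA10hd libraries and 5.25, 6.97 and 10.05 CPM in NV libraries. The groups overlapped, and NA10hd replicates 3 and 4 were the highest and the lowest of all 11 libraries. The log2 fold changes were 0.61 (SE 0.66) for NA10hd and 0.44 (SE 0.42) for NV against control, with adjusted p of 0.763 and 0.636 in edgeR. NA10hd and NV HSC differed by 0.16 (SE 0.71, adjusted p = 0.939 in edgeR).

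Gfi1, a zinc finger repressor of HSC and granulocyte precursors (chr5:108145674-108155056, minus strand), was at 38.1, 14.5, 11.2 and 26.9 CPM in control libraries. It was at 108, 70.8, 42.4 and 21.6 CPM in NA10hd libraries and at 10.8, 12.5 and 13.9 CPM in NV libraries. Every NA10hd library was above every NV library, and both genotypes overlapped control. NA10hd HSC had 4.87-fold the Gfi1 level of NV HSC (log2 fold change 2.28, SE 0.47, adjusted p = 0.0197 in edgeR), the only call among the 10 genes. Against control, the log2 difference was 1.44 (SE 0.47, adjusted p = 0.287) in NA10hd and -0.86 (SE 0.38, adjusted p = 0.240 in edgeR) in NV HSC. The call was lost without NV replicate 1, 2 or 3, with adjusted p of 0.0971, 0.113 and 0.0978, while the log2 difference stayed between 2.19 and 2.37, and over all alternatives the adjusted p ran up to 0.113. Of the Gfi1 exon bases, 3.11% are shared with A430072P03Rik on the opposite strand.

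Gfi1 levels differed between control libraries that held different sex-specific transcripts. The control replicates with Y-linked counts alone were at 38.1 and 26.9 CPM, and those with both kinds of transcript at 14.5 and 11.2 CPM. The NV libraries, which held both, were at 10.8 to 13.9 CPM. NA10hd replicate 4, the only library with Xist alone, was at 21.6 CPM, above every library that held both. Within libraries of the same mix, NV differed from control by a log2 value of -0.05 (SE 0.32, adjusted p = 0.966 in edgeR), in place of -0.86. Within libraries with Y-linked counts alone, NA10hd replicates 1 to 3 were all above control replicates 1 and 4, by a log2 value of 1.18 (SE 0.39, adjusted p = 0.989 in edgeR). Control replicates 1 and 4 were also the control libraries of lowest depth, 5464815 and 7190197 counts. The part of sex and depth in the Gfi1 differences was not tested beyond these values.

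**Figure D3:**
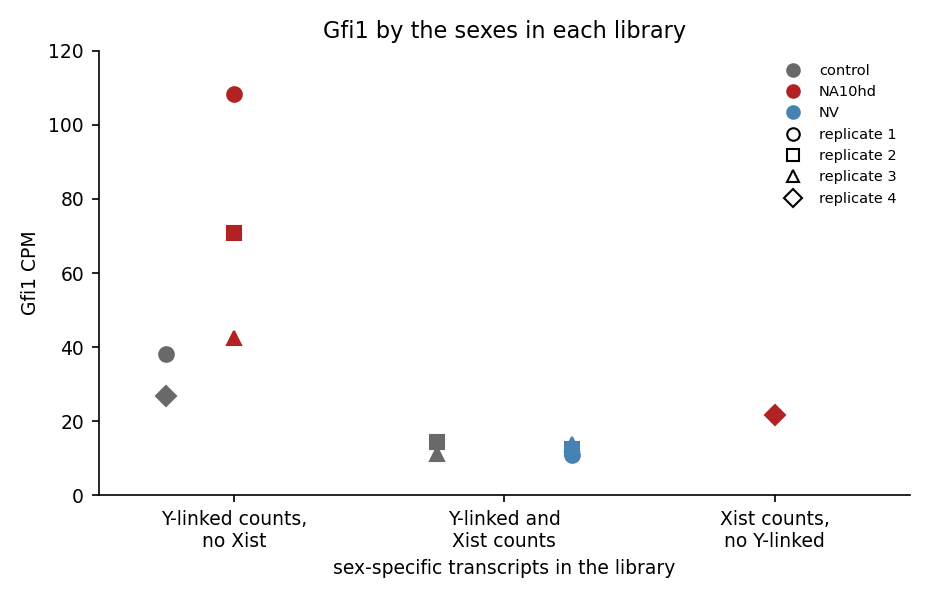
Gfi1 CPM (y axis) of the 11 libraries, split along the x axis by the sex-specific transcripts each held, with the color giving the group and the symbol the replicate. Libraries with both kinds of transcript lay between 10.8 and 14.5 CPM whether control or NV, and those with Y-linked counts alone lay at 26.9 CPM and above. NA10hd replicate 4, with Xist alone, lay between them at 21.6 CPM.

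The comparison of NA10hd with control called 0 of the 4 genes tested in edgeR, where 0.00766% of all 13060 tested genes were called (1 gene, Rrm1, named after its value was seen). Of the 4, 2 had an unadjusted p under 0.05 (Cebpb and Gfi1), beside 11.9% of all genes, and 0 did not overlap between the groups, beside 7.83%. DESeq2 (1.92% of all genes called) and limma-voom called 0 of the set as well. NV against control called 0 of 5, beside 4.76% of 13462 genes, 2.55% higher and 2.21% lower in NV, with 2 at an unadjusted p under 0.05 (again Cebpb and Gfi1) beside 19.5%, and 0 without overlap beside 18.9%. DESeq2 (6.92% of all genes called) and limma-voom again called 0. NA10hd against NV called 1 of 5, beside 5.09% of 13461 genes, with 2.30% higher and 2.79% lower in NA10hd, and the 1 gene was higher. In that comparison Cebpb and Gfi1 had an unadjusted p under 0.05, beside 19.5% of all genes, and did not overlap between the groups, beside 21.0%. Cd48 passed the filter there only through the NV libraries, where it is high, so its own p and lack of overlap are not counted with them. DESeq2 called Gfi1, Cebpb and Cd48, beside 10.3% of the 14328 genes it tested. The median log2 difference over the tested genes of the set was 0.90 for NA10hd against control, 0.13 for NV against control and 0.16 for NA10hd against NV, beside 0.02, -0.01 and 0.01 over all genes tested, and the medians of both comparisons with NV include Cd48. The 0.90 is the median of 4 genes without Cd48. It was 0.59 in DESeq2 and 0.47 with all 3 groups in 1 fit, where Cd48 was included. The 2 comparisons with control share the control libraries, so the opposite signs of Cebpb and Gfi1 in them are not independent of each other.

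**Figure D4:**
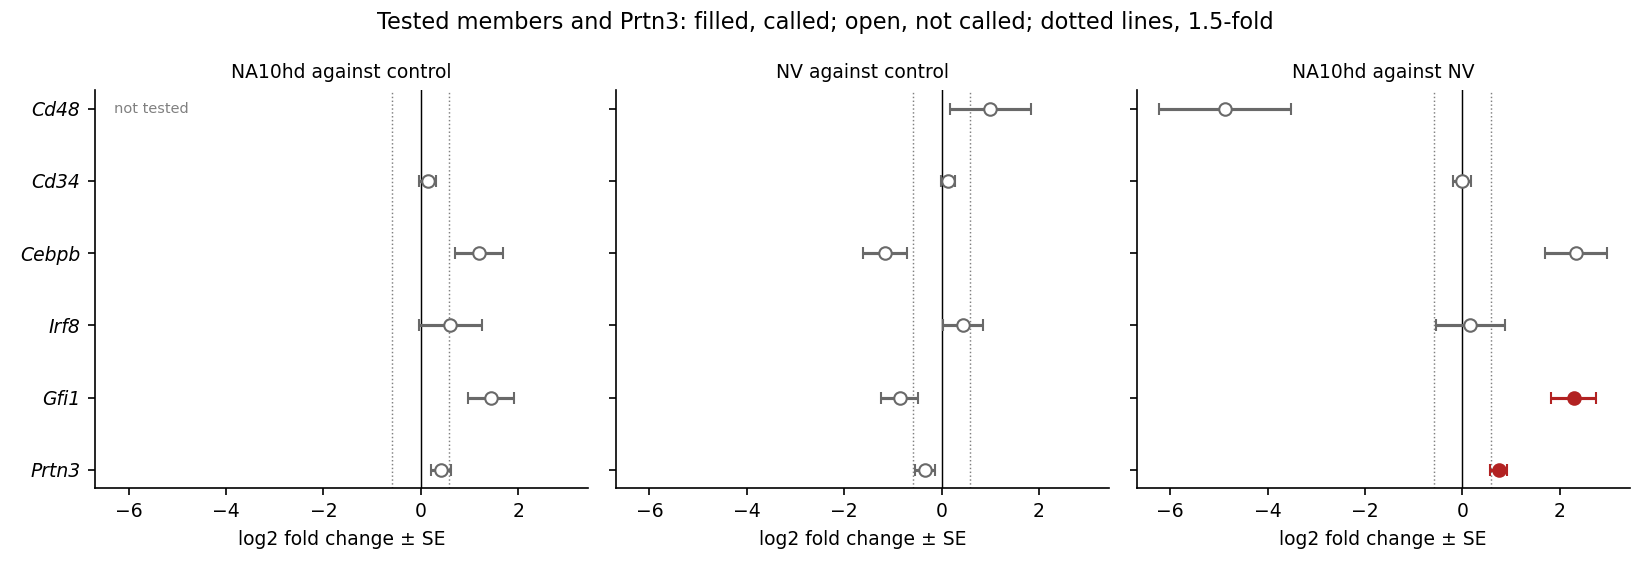
Log2 fold change ± SE (x axis) of the 5 tested genes of the set and of Prtn3 in the 3 comparisons, filled where called and open where not, with dotted lines at 1.5-fold. Gfi1 and Prtn3 were called in NA10hd against NV, where Cd48 and Cebpb lay far from 0 with wider errors.

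**Figure D5:**
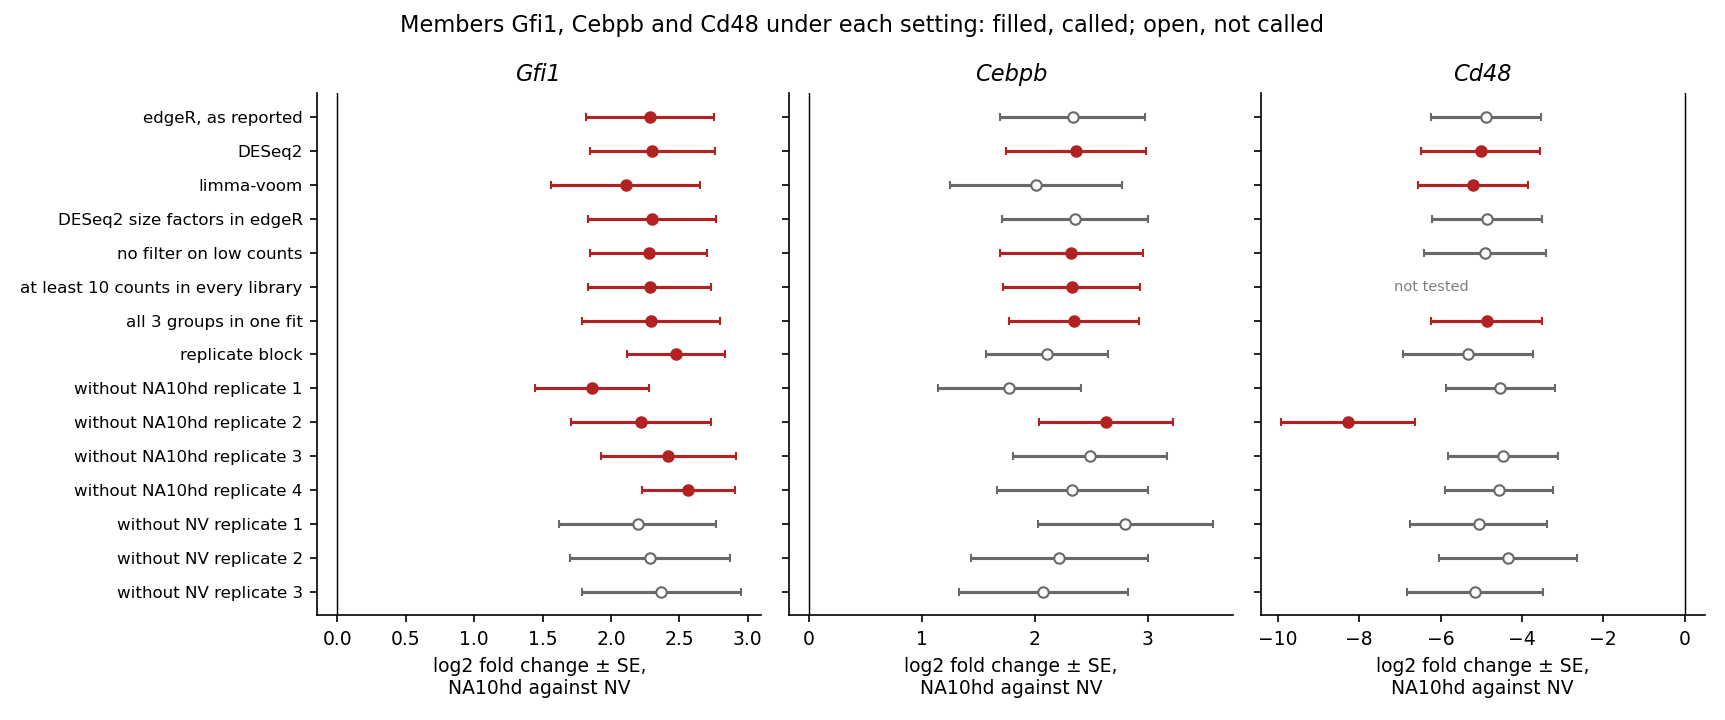
Log2 fold change ± SE (x axis) of Gfi1, Cebpb and Cd48 between NA10hd and NV HSC under the reported edgeR fit and each alternative (y axis), filled where called. No value changed its sign, Gfi1 lost its call in the 3 fits with 1 NV library left out, and Cd48, which passed the filter through the NV libraries alone, was not tested where 10 counts were required in every library. The value of -8.28 for Cd48 without NA10hd replicate 2 sets NV against 3 libraries at 0 and is no estimate of a fold.

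None of the genes of the 15 other lists was called in NA10hd against control in edgeR, and DESeq2 called 2, Procr and Pdzk1ip1. Of the 13 other myeloid transcription factors tested in NV against control, 2 were called, both lower: Id2, an inhibitor of E proteins (-1.42, SE 0.29, adjusted p = 0.0143), and Klf4, a factor of monocyte differentiation (-1.16, SE 0.23, adjusted p = 0.0114 in edgeR), beside 2.21% of all genes called lower. Of the other multipotent and lymphoid-primed progenitor genes, Il7r, Dntt, Rag1 and Rag2, genes of the lymphoid program, were at 0 in all libraries.

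Genes of the HSC state and of other lineages also differed between NV and the other groups. Of the 15 gate and long-term HSC genes, 5 were called lower and 1 higher in NV HSC than in control, beside 2.21% and 2.55% of all genes, with a median log2 difference of -0.59 beside -0.01 over all genes. Fgd5, a marker of long-term HSC, differed by -1.13 (SE 0.27, adjusted p = 0.0284), and Ly6a, the Sca1 of the gate, was higher by 0.70 (SE 0.14, adjusted p = 0.0126 in edgeR). NA10hd HSC were called higher than NV HSC in 7 of the 15, beside 2.30% of all genes, with Hoxb5 (1.93, SE 0.36, adjusted p = 0.0120 in edgeR) first. Among megakaryocyte markers, the platelet chemokine gene Pf4 was higher in NV HSC than in control by 2.91 (SE 0.34, adjusted p = 0.000911 in edgeR), and the 6 markers summed to 187 to 449 CPM in NV against 90.6 to 116 CPM in control libraries. Of the monocyte and macrophage markers, Ctss (cathepsin S) was the only call, higher by 1.62 (SE 0.35, adjusted p = 0.0186 in edgeR) in NV HSC, and the 8 markers summed to 541 to 572 CPM in NV and 451 to 570 CPM in control libraries, most of it Lyz2. The number of calls in the 15 other lists changed with the fit and with single NV libraries. These lists held 141 genes outside the set, not all of them tested. In NV against control the calls numbered 20, beside 4.76% of all genes tested. They numbered 9 with all 3 groups in 1 fit, 10 among libraries with the same mix of sexes and 9 or 10 when NV replicate 2 or 3, respectively, was left out. In NA10hd against NV they also numbered 20, beside 5.09% of all genes tested, but 9 without NV replicate 1 and 4 without NV replicate 2 or 3. The share of all genes called in these refits is not given here, so a fall particular to the lists cannot be read from these counts. The part of other cell types in the differences of the set was not tested. Nras itself was at 68.2 to 93.8 CPM in control libraries and at 111 to 113 CPM in NV libraries, a log2 difference of 0.41 (SE 0.14, adjusted p = 0.124 in edgeR), in a table that does not separate the alleles.

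The genes with the profile nearest to each member were found over the 11 libraries among 14013 genes, by the root mean square (RMS) difference of log2 CPM centered on the gene's mean. The nearest to Gfi1 were Ocln (0.361), Pam (0.496) and Fth-ps2 (0.517), where Gfi1 itself varied with an RMS of 1.07. Nearest to Cebpb were S100a4 (0.406), D630039A03Rik (0.420) and Gm16247 (0.457), beside an RMS of 1.05. Cd34 varied by an RMS of 0.189, and its nearest genes were Tal1 (0.114), Zfp664 (0.126) and Smarcc2 (0.127). Those of Irf8 were Wdsub1, F2rl3 and Mlph (0.416 to 0.451). Those of Cd48 were 5730577I03Rik, Tmem170 and Rapsn (0.723 to 0.774), and those of Cebpa Lmbr1l, Ninl and C030014I23Rik (0.651 to 0.772), both at the low counts given above. No member was among the nearest genes of another.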

How the data were processed

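Raw counts per gene were deposited by the authors for 37991 Ensembl IDs in 11 libraries, without normalization: sorted HSC were amplified as cDNA, prepared with Nextera XT, sequenced on a NextSeq500, aligned to NCBIM37 with HISAT2 and counted with featureCounts. Their versions, annotation release and strand setting are not given in the sources used here. Symbols and positions came from GENCODE on NCBIM37. The genotype label of a library gave its group.

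Each comparison was fitted on the libraries of its 2 groups with edgeR 4.0.16 in R 4.3.3 (TMM, the default filter on low counts, quasi-likelihood test). The SE of an edgeR value was derived as the size of the log2 fold change divided by the square root of the test's F statistic. A call needed a Benjamini-Hochberg adjusted p under 0.05 over all tested genes and a fold above 1.5. CPM were counts scaled by library total times TMM factor. Limits were 3 counts over a group's total, and cover counting error only, since reads carry no molecular identifiers. The alternatives were DESeq2 1.42.0, limma-voom (limma 3.58.1), DESeq2 size factors, no filter, 10 counts in every library, all 3 groups in 1 fit, a replicate block, no fold threshold, libraries with the same mix of sexes, and each library left out. The scripts were tested on simulated data. The genes and lists were chosen with earlier results of these data known. Of the genes outside the set, the text names up to 3 called genes with the largest change per list and comparison, the gate genes, Spi1, Prtn3, Csf1, Il34 and Nras, and the 3 nearest profiles per gene. Lyz1, Lyz2, Srgn, Cd244 and the genes at 0 were named after their values were seen. Promoter sequences came from RefSeq on GRCm38.p6. 1 called gene of the other lists is not reported here.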

Additional observations from a re-analysis of the deposited data

Results flagged for a closer look

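Within a group of 4 libraries, 1 library stood apart from the other 3 in 4 of the 15 gene and group combinations compared. In 3 of the 4, the other 3 libraries were at 0, so that any count in 1 library sets it apart, and the usual rate of about 1 in 20 by chance does not apply. A further 5 combinations had equal values of 0 in all 4 libraries and could not be compared. Each of the 4 rests on few counts or on libraries at 0. Elane was at 3.07 CPM in NA10hd replicate 1 (25 counts) and at 0 to 0.142 CPM in the other 3 NA10hd libraries. Elane was at 0.758 CPM in control replicate 2 (8 counts) and at 0 in the other 3 control libraries. Cd48 was at 0.398 CPM in NA10hd replicate 2 (5 counts) and at 0 in the other 3. Mpo was at 0.123 CPM in NA10hd replicate 1, which is its single count. NA10hd replicate 1 was also the highest NA10hd library in Cebpb (34.2 CPM) and Gfi1 (108 CPM), and had 14430 genes detected against 13859 to 15455 in the group. Whether these values share a source was not tested.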

How the results depend on the processing

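In NA10hd against NV, 1 gene of the set was called. DESeq2 called 3, limma-voom 2, no filter on low counts 2, a minimum of 10 counts in every library 2, and all 3 groups in 1 fit 3. The calls of DESeq2, limma-voom and the fit of all 3 groups include Cd48, which had 5 counts in NA10hd and was high enough to be tested only through the other libraries. With each library left out the count ranged from 0 (without NV replicate 1, 2 or 3) to 3 (without NA10hd replicate 2, Cd48 included). The other 2 comparisons stayed at 0 under each alternative run. Of 205 values recomputed for 14 results, 181 kept their direction and side of the threshold, 9 passed the threshold newly, 3 no longer passed it and 12 changed sign, all 12 in NA10hd against NV for Cd34 and Irf8, whose differences were near 0. For Cd34 (as reported, -0.00) these were 0.0194 in DESeq2, 0.000297 in limma-voom, 0.0202 with DESeq2 size factors, 0.000491 with at least 10 counts in every library, 0.00636 with all 3 groups in 1 fit and 0.0750 with the replicate block, and with each library left out the value ranged from -0.0879 to 0.106. For Irf8 it was -0.0568 in limma-voom and ranged from -0.266 to 0.524 with each library left out. The cause was not tested. Replicate numbers did not pair the libraries: deviations of same-numbered libraries correlated at -0.0875 to 0.0264, under the 0.1 set for pairing. With the replicate block the counts of calls were 0, 0 and 1, as without it. Mpo, Ctsg, Elane, Csf1r and Cebpa lay under the filter on low counts in all 3 comparisons as reported, and no alternative that tested any of them called it.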

Other observations

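Genes of other lineages that the set does not cover differed in NV HSC, beside 2.55% of all genes called higher and 2.21% called lower than in control. Of the 4 dendritic cell markers tested, 2 were called: the MHC class II genes H2-Ab1 and H2-Aa, which present antigen, were higher in NV than in control HSC by log2 differences of 1.18 (SE 0.20, adjusted p = 0.00519) and 0.995 (SE 0.23, adjusted p = 0.0274 in edgeR). H2-Ab1 was at 107 to 132 CPM in NV and 41.5 to 75.3 CPM in control libraries, while Siglech and Itgax, of plasmacytoid and conventional dendritic cells, were at 0 in all libraries. Of the 10 erythroid markers 4 were tested, and 2 were called, Klf1 (2.17, SE 0.50, adjusted p = 0.0257) and Epor (1.37, SE 0.26, adjusted p = 0.0105 in edgeR), the erythropoietin receptor, both higher in NV than in control HSC. The log2 differences of the 4 had a median of 0.70 and a lowest value of -0.56, and the 10 markers summed to 1353 to 1408 CPM in NV libraries, inside the 1058 to 1473 CPM of control libraries. Most of this sum was Car2, at 815 to 1437 CPM over all libraries, while the other markers together reached only 19.7 to 86.9 CPM. Itga2b, the integrin CD41 of megakaryocytes and 1 of the 3 of 6 megakaryocyte markers called, was higher by 1.30 (SE 0.23, adjusted p = 0.00684 in edgeR). Emcn, the endomucin of endothelium and of HSC and the only call in NV against control among the 4 endothelial and stromal markers tested, differed by -1.45 (SE 0.22, adjusted p = 0.00306 in edgeR) in NV against control and by 1.57 (SE 0.28, adjusted p = 0.00891 in edgeR) in NA10hd against NV.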
